A study of Mus musculus with 4 samples.

Results

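The 10 genes described here encode the ligand insulin-like growth factor 1 (*Igf1*), the receptors *Igf1r* and *Insr*, and the secreted IGF binding proteins *Igfbp1* to *Igfbp7*. They were chosen by gene name, with earlier results of these data known. All 10 were found among the 24637 genes of the deposited table. Messenger RNA was sequenced in 4 libraries, 2 labelled WT (Taf4+/+) and 2 labelled Taf4a-/- (genotype Taf4-/-). Per the study's methods, 2 independent embryonic stem cell (ESC) lines of each genotype were used. The labels give replicate numbers and no line names, so 1 library per line is an assumption made below. The lines came from blastocysts of crosses between *Taf4a* heterozygous mice, were kept on fibroblast feeders with LIF, and were grown for 5 days as embryoid bodies in serum and for 9 more days on gelatin, a protocol for cardiomyocytes. *Taf4a* encodes TAF4, a subunit of the general transcription factor TFIID, and the comparison asked which genes depended on it during this differentiation. The genotype is that of the whole line from the stem cell on, so the stage at which a difference arose cannot be told from these cultures. P-values below measure the spread between libraries of a genotype, in which line, culture and library preparation cannot be told apart. The estimate of that spread is partly borrowed from other genes.

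IGF1 and IGF2 are secreted growth factors that act through the receptor tyrosine kinase IGF1R and, more weakly, through the insulin receptor, which signal to PI3-kinase, AKT and mTOR. Binding proteins hold most of the IGF outside cells, lengthen its life and either keep it from the receptor or bring it close, and secreted proteases release it by cutting them. In the embryo the pathway drives growth, and in the heart it supports the growth and survival of cardiomyocytes. Stromal cells, macrophages and liver cells are known sources of IGF1, and IGFBP1 is a product of liver and yolk sac-type endoderm.

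Read totals ran from 21732746 to 27733034 per library. *Taf4a* itself was not reduced: over all exons, its normalized counts were 889 and 678 in the WT libraries and 1722 and 1799 where the label was Taf4a-/- (log2 fold change 1.18, adjusted p = 0.00569 from limma). Per the study's methods the null allele lacks a pair of internal exons, which a count over the whole gene does not separate, so this value does not check the deletion. The study reported, from immunostaining, that TAF4 protein was absent from its *Taf4a*-/- ESCs. Genotypes below are those of the labels, and values of a genotype are given in the order replicate 1, replicate 2. A normalized count is the number of reads of a gene divided by the size factor of its library. A gene was called when its adjusted p-value was under 0.05 in limma's test on log2(normalized counts + 1), which shares the estimate of spread across the 16926 genes tested and understates changes of genes with few reads. Log2 fold changes are Taf4a-/- minus WT. All 9 cardiomyocyte markers were detected in every library and were called lower where the label was Taf4a-/-, with a summed level of 21879 to 23962 normalized counts in WT and 1731 to 2013 in the others, and *Actc1*, cardiac actin, had 7519 and 6901 in WT against 227 and 399.

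Of the 10 genes, 6 fell with the Taf4a-/- label and 0 rose, and all 10 passed the filter on low values. The genes that fell were *Igf1* and 5 of the 7 binding proteins, *Igfbp1*, *Igfbp3*, *Igfbp5*, *Igfbp6* and *Igfbp7*. Neither receptor was called, nor were *Igfbp2* and *Igfbp4*. Over all genes tested, 17.3% were called lower and 11.3% were called higher. The median log2 fold change was -0.97 over the 10 genes and -0.01 over all genes. The same 6 genes were those in which both libraries labelled Taf4a-/- lay below both WT libraries, which held for 36.6% of all genes tested, and 2 of the 10 genes lay above WT in the same way, against 34.5%. When 1 library was left out, 4 to 6 of the genes were called lower, and *Igfbp3* and *Igfbp6* were the calls lost.

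**Figure D1:**
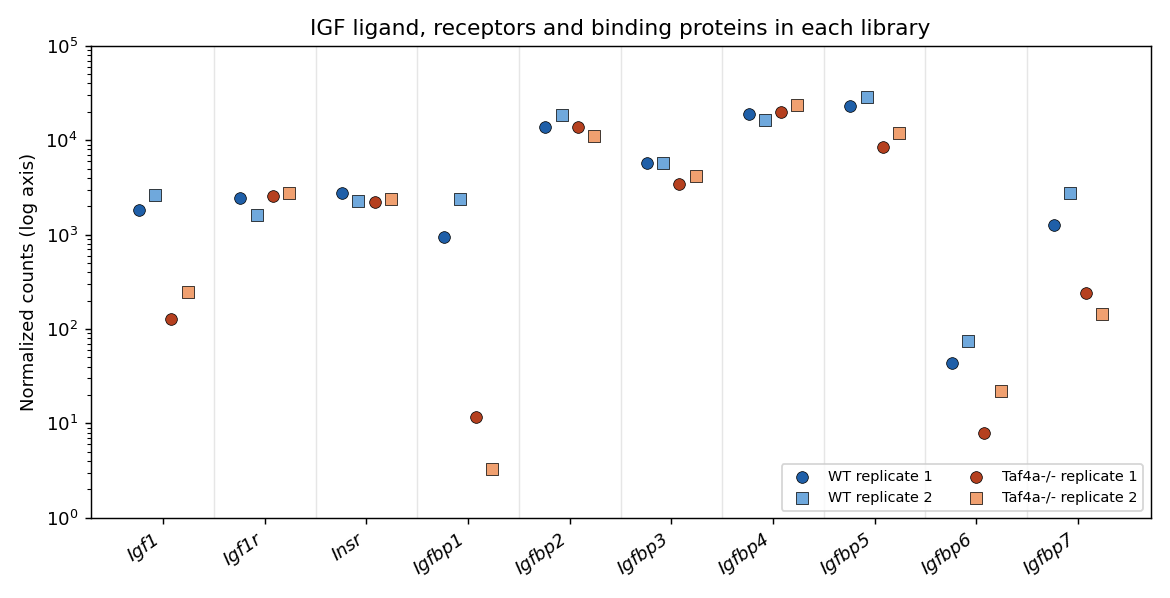
Normalized counts (log axis) of the 10 genes, with 1 point for each library and colour for the genotype of the label. *Igf1*, *Igfbp1* and *Igfbp7* show the widest gaps between genotypes, whereas the points of *Insr* and *Igfbp2* overlap.

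**Figure D2:**
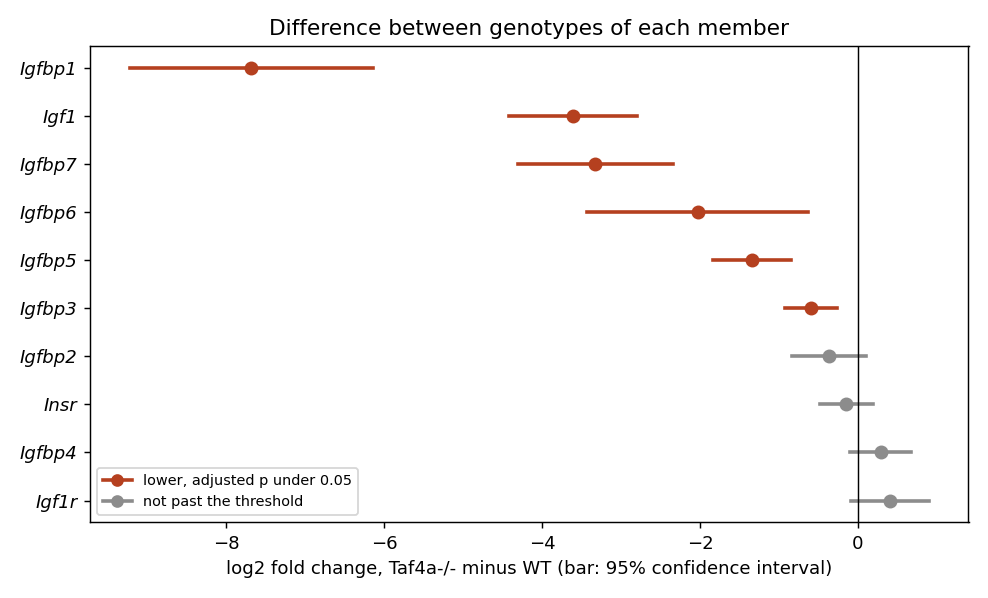
Log2 fold change of each gene (point) with its 95% confidence interval from limma (bar), ordered by size. The 6 genes called lower lie left of 0 from -7.68 for *Igfbp1* to -0.59 for *Igfbp3*, and the intervals of the other 4 genes include 0.

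*Igf1*, the ligand, fell about 12-fold. WT libraries held 1838 and 2601 normalized counts of it, and those labelled Taf4a-/- held 128 and 248. The lowest WT value was thus far above the highest of the others, although the lines of each genotype also differed, with replicate 2 higher by 0.50 on the log2 scale in WT and by 0.94 in Taf4a-/-. The log2 fold change of -3.61 had a standard error of 0.33 (95% confidence interval -4.42 to -2.80, adjusted p = 0.00203 from limma), a 12.2-fold difference. The gene lies on chromosome 10 of NCBIM37 (87321010 to 87399792, plus strand), with 9 annotated transcripts that the gene-level counts do not separate. In these bulk cultures, fewer cells that express a gene and less RNA in each of them cannot be told apart.

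Neither receptor passed the test. *Igf1r*, the receptor through which both IGFs signal, had 2464 and 1629 normalized counts in WT and 2554 and 2743 in those labelled Taf4a-/-. Its values in WT were both below those of the other libraries, but WT replicate 1 was close to the lower of them. The log2 fold change was 0.40 (95% confidence interval -0.09 to 0.90, adjusted p = 0.184 from limma). Without WT replicate 1 the value was 0.70 and was called higher (adjusted p = 0.0182), and without WT replicate 2 it was 0.10, so the value rests on WT replicate 2. *Insr*, the insulin receptor, had 2786 and 2277 normalized counts in WT against 2201 and 2360.2, and the genotypes overlapped. Its log2 fold change was -0.14 (95% confidence interval -0.48 to 0.19, adjusted p = 0.464 from limma), and this interval is narrower than that of *Igf1r*. The exon length of *Igf1r* in the annotation is 4.476 kb and that of *Insr* is 9.669 kb. Per kb of exon, the ratio of *Igf1r* to *Insr* was 1.91 and 1.55 in WT, against 2.51 and 2.51.

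*Igfbp1*, whose transcription insulin represses in liver, showed the largest fall of the 10 genes. Its normalized counts were 956 and 2415 in WT but 11.7 and 3.32 in those labelled Taf4a-/-, which rest on 12 and 3 reads. The genotypes were far apart, yet the WT lines also differed by 1.34 on the log2 scale. The log2 fold change was -7.68 ± 0.63 (SE, adjusted p = 0.00143 from limma), which ranked 15 among all falls. Summed reads were 3414 in WT and 15 in Taf4a-/-, and their ratio after scaling by the summed size factors of each genotype was 208-fold, with an exact binomial 95% interval of 126 to 373 that covers counting error only.

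*Igfbp7*, a relative of the family found in vessel walls and matrix that binds IGF weakly, fell about 10-fold. Its values were 1276 and 2778 normalized counts in WT and 242 and 145 in those labelled Taf4a-/-. As with *Igfbp1*, WT replicate 2 was the highest library and Taf4a-/- replicate 2 the lowest. The log2 fold change was -3.32 ± 0.41 (SE, adjusted p = 0.00398 from limma). Its exons share 85 bases with those of *Polr2b* on the other strand, and reads there cannot be assigned because the libraries did not mark strand.

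*Igfbp5*, which binds matrix and is produced by muscle and mesenchymal cells, was the most counted of the 10 genes in WT. It fell from 22819 and 28445 normalized counts in WT to 8558 and 11809 in those labelled Taf4a-/-. These values did not overlap, and its log2 fold change was -1.34 ± 0.20 (SE, 95% confidence interval -1.84 to -0.85, adjusted p = 0.00754 from limma), a 2.53-fold difference. *Igfbp3*, the main carrier of IGF in serum, had 5763 and 5703 normalized counts in WT and 3423 and 4218 in the others. The WT lines were close to each other, with a mean of 5733 ± 41.9 normalized counts (SD, n = 2), and both other libraries were lower. The fall was small, with a log2 fold change of -0.59 ± 0.14 (SE, adjusted p = 0.0257 from limma). It was no longer called without WT replicate 1, WT replicate 2 or Taf4a-/- replicate 1, with adjusted p = 0.0591, 0.0771 and 0.233. *Igfbp6*, which prefers IGF2, was near the floor of the table. It had 43.8 and 74.8 normalized counts in WT and 7.83 and 22.1 in those labelled Taf4a-/-. Its log2 fold change of -2.03 ± 0.58 (SE, adjusted p = 0.0451 from limma) was just past the threshold and was not called without WT replicate 1, WT replicate 2 or Taf4a-/- replicate 1, with adjusted p = 0.0776, 0.196 and 0.143.

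*Igfbp2* and *Igfbp4*, both abundant in embryonic and stem cell cultures, were not called. *Igfbp2* had 13792 and 18502 normalized counts in WT against 13871 and 11127, and WT replicate 1 lay between these. A log2 fold change of -0.36 was found (95% confidence interval -0.83 to 0.11, adjusted p = 0.205 from limma). *Igfbp4* had 19146 and 16445 normalized counts in WT against 19910.2 and 23551, so that its values were ordered the other way from those of the genes that fell. The log2 fold change was 0.29 (95% confidence interval -0.10 to 0.68, adjusted p = 0.221 from limma).

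Of the 7 binding protein genes, 4 form pairs of neighbours that point their 3′ ends at each other with no annotated gene in between. *Igfbp1* and *Igfbp3* are 3539 bases apart on chromosome 11, and *Igfbp2* and *Igfbp5* are 5457 bases apart on chromosome 1. Within each pair the 95% confidence intervals of the log2 fold changes did not overlap, at -9.22 to -6.14 for *Igfbp1* against -0.93 to -0.26 for *Igfbp3*, and -1.84 to -0.85 for *Igfbp5* against -0.83 to 0.11 for *Igfbp2*. The log2 ratio of *Igfbp1* to *Igfbp3* in a library was -2.59 and -1.24 in WT and -8.07 and -9.93 in those labelled Taf4a-/-. The log2 ratio of *Igfbp5* to *Igfbp2* was 0.73 and 0.62 in WT and -0.70 and 0.086 in the others. In both pairs the ratio was lower in each library labelled Taf4a-/- than in either WT library, a difference that was not tested. The promoters of these 4 genes are printed here because the neighbours start from separate sequences, and that of *Igfbp4* because among the members it alone held TATAAA on its own strand. Each sequence is RefSeq's for GRCm38.p6, from 250 bases before to 50 after the annotated start on the gene's strand, and was found once, unchanged, in NCBIM37. There *Igfbp1* is at chr11:7097540-7097839 (plus strand), *Igfbp3* at chr11:7113877-7114176 (minus), *Igfbp2* at chr1:72870804-72871103 (plus), *Igfbp5* at chr1:72921390-72921689 (minus) and *Igfbp4* at chr11:98902308-98902607 (plus). Capitals mark matches on either strand to any of 4 motifs. TATAAA is the core of the TATA box, which TFIID binds, CCAAT is the site of factor NF-Y, the letters GGGCGG make up a GC box, and CAAAACAA begins the insulin response sequence known from the *Igfbp1* gene in liver.
Igfbp1: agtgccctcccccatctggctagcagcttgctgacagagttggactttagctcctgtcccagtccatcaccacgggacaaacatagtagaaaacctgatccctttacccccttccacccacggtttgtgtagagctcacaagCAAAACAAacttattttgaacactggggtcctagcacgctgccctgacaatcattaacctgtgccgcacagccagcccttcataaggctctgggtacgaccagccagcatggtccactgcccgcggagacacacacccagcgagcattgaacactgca
Igfbp3: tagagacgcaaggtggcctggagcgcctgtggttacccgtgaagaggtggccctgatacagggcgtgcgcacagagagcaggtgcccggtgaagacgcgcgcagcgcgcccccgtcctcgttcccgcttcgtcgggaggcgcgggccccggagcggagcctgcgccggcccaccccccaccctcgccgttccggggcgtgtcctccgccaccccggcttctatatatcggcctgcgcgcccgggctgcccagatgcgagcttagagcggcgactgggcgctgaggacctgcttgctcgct
Igfbp2: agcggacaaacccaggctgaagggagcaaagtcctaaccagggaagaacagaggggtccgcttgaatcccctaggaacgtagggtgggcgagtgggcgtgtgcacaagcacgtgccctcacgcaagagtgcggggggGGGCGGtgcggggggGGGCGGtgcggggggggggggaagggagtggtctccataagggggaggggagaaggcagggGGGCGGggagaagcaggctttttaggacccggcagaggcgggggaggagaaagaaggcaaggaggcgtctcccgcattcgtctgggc
Igfbp5: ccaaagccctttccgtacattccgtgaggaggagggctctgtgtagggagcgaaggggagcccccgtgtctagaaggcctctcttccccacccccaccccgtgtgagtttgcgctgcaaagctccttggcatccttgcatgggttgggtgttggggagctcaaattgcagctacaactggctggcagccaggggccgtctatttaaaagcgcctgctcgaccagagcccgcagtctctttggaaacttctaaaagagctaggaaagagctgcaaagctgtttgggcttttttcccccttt
Igfbp4: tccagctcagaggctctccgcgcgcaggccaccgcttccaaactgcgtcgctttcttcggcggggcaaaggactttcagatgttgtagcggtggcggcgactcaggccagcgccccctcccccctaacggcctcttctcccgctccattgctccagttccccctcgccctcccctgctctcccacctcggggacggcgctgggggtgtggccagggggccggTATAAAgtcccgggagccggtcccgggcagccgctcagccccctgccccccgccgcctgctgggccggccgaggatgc

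The window of *Igfbp1* held CAAAACAA from position -108, counted from the start, a match present in 2.51% of all 32851 RefSeq promoter windows. That of *Igfbp4* held TATAAA from position -28, present on either strand in 13.6% of windows. *Igfbp2* held GGGCGG at 3 positions, present in 35.7% of windows, and the windows of *Igfbp3* and *Igfbp5* held no exact match to the 4 motifs. Only these exact letters were searched. A window without TATAAA can thus still hold a TATA-like sequence, such as tatatat in that of *Igfbp3* or tatttaaa in that of *Igfbp5*. Of the 9 members with a RefSeq promoter, TATAAA was also found in that of *Igfbp6* (on the other strand), GGGCGG in those of *Igf1r* and *Igfbp7*, and CCAAT, present in 37.4% of windows, in those of *Igf1* and *Igfbp6*. Some RefSeq starts differed from the gene start in the annotation used for exon lengths. They lay at 2846 bases from it for *Igf1*, -570 for *Igf1r* and -176 for *Igfbp6*, where negative means upstream. *Insr* is named only. *Igfbp2* has a second window, which held no exact match to the 4 motifs.

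Levels can be compared between genes only per length, here as normalized counts per kb of annotated exon. In WT, *Igfbp2* and *Igfbp4* led, with 8742 ± 1803 and 7534 ± 808 per kb (SD, n = 2 each), and their ranges overlapped. *Igfbp5* followed with 4268 ± 662 per kb, then *Igfbp3* with 1832 ± 13.4, *Igfbp7* with 1671 ± 876 and *Igfbp1* with 1105 ± 677 per kb (SD, n = 2). The ranges of *Igfbp3* and *Igfbp7* overlapped, as did those of *Igfbp7* and *Igfbp1*. The receptors were lower, 457 ± 132 per kb for *Igf1r* and 262 ± 37.3 for *Insr*, and *Igf1* had 224 ± 54.3 per kb (SD, n = 2 each), in a range that overlapped that of *Insr*. *Igfbp6* came last with 53.3 ± 19.7 per kb (SD, n = 2).

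In the libraries labelled Taf4a-/-, the order per kb began with *Igfbp4* at 9200.0 ± 1090 and *Igfbp2* at 6767 ± 1051 (SD, n = 2 each), which did not overlap. *Igfbp5* had 1695 ± 383 per kb and *Igfbp3* 1221 ± 180 (SD, n = 2 each). The receptors then stood above *Igfbp7*, with 592 ± 29.8 per kb for *Igf1r*, 236 ± 11.7 for *Insr* and 159 ± 56.5 for *Igfbp7* (SD, n = 2 each). *Igf1* had 18.9 ± 8.52 per kb, *Igfbp6* 13.5 ± 9.09 and *Igfbp1* 4.94 ± 3.91 (SD, n = 2 each), and neighbours among these 3 overlapped. *Igfbp1* thus moved from rank 6 to rank 10 of the 10 genes and *Igfbp7* from rank 5 to rank 7.

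The summed level of the 7 binding proteins was 22931 and 27479 per kb in WT and 18672 and 19450.5 in those labelled Taf4a-/-. Of this sum, *Igfbp2*, *Igfbp4* and *Igfbp5* together made up 84.5% and 79.0% in WT and 93.0% and 92.3% in the others. *Igfbp4* made up 35.3% and 25.3% in WT and 45.1% and 51.3% in those labelled Taf4a-/-, while *Igfbp5* went from 16.6% and 17.2% to 7.63% and 10.1%. The share of *Igfbp2* was 32.6% and 36.5% in WT and 40.2% and 31.0% in Taf4a-/-, which overlapped. *Igfbp1* made up 2.73% and 5.76% in WT and at most 0.0413% in the others, and *Igfbp7* 4.59% and 8.34% against at most 1.07%. Shares sum to 100%, so a gene's share moves when others do. Without division by length, *Igfbp2* had a mean share of 23.3% in WT instead of 34.5%, and 40.5% per kb of the longest transcript.

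**Figure D3:**
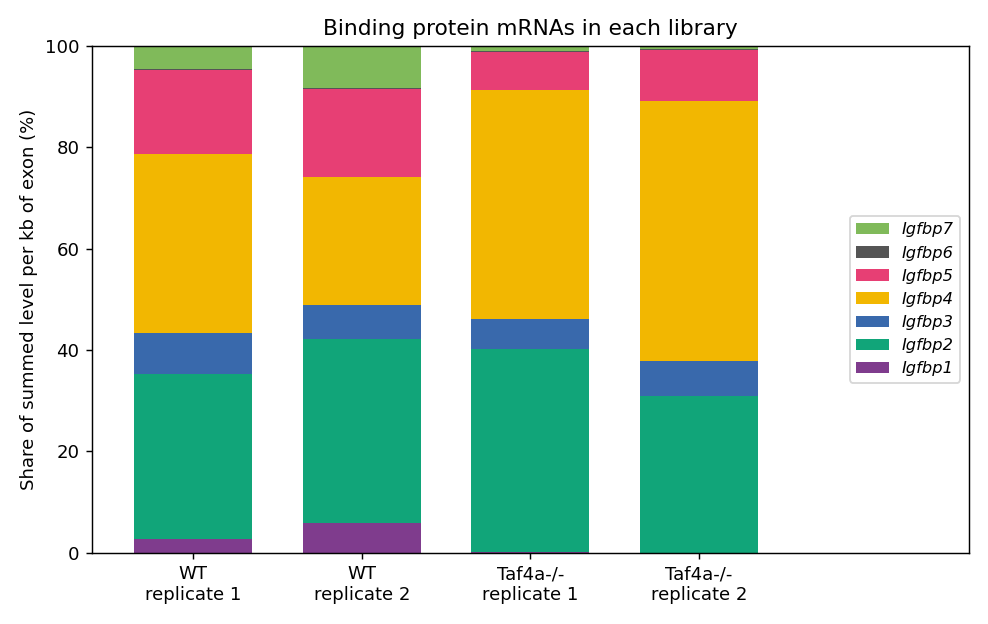
Share of each binding protein in the summed level per kb of exon (percent) in each library, stacked to 100%. *Igfbp4* takes 45.1% and 51.3% in the libraries labelled Taf4a-/- against 35.3% and 25.3% in WT, and the bands of *Igfbp1* and *Igfbp7* nearly vanish.

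Of 60 other genes of the pathway in 5 lists, 59 were in the table and 56 were tested. Of these, 15 were lower and 5 were higher, beside 17.3% and 11.3% of all genes tested, and the median log2 fold change was -0.09. Of the falls, 7 were among the proteases that cut binding proteins and the stanniocalcins, which inhibit some of these proteases. In that list 7 of 8 genes tested were lower, against 17.3% of all genes, 0 were higher and the median was -1.76. The list was chosen with earlier results of these data known, so this count is a description and no test. *Pappa*, a metalloprotease that cuts IGFBP4, had 836 and 827 normalized counts in WT and 239 and 163 in those labelled Taf4a-/-, which gave -2.07 on the log2 scale (adjusted p = 0.00296 from limma). Its relative *Pappa2*, which cuts IGFBP3 and IGFBP5, had 57.0 and 54.0 against 14.7 and 8.85. The inhibitors fell too, *Stc1* from 267 and 328 normalized counts to 101 and 99.5 and *Stc2* from 683 and 657 to 320.1 and 316. The serine protease *Htra1* went from 1519 and 3109 to 593 and 519 normalized counts, and *Htra3* from 90.3 and 490.4 to 39.2 and 29.9. *Adam12*, a metalloprotease that cuts IGFBP3 and IGFBP5, had 2791 and 2796 against 1634 and 2022. Without WT replicate 2, the library in which *Htra3* was highest, 4 genes of the list were called lower, and *Pappa*, *Stc1*, *Stc2* and *Htra1* were called lower whichever library was left out. *Htra3* was only just past the threshold (adjusted p = 0.0466 from limma), and its call was also lost with no filter (0.0503), a mean of at least 50 (0.0507), quantile normalization (0.0670), no variance trend (0.118) and voom (0.125). The call of *Adam12* was lost on leaving out any of 3 libraries and with no variance trend (adjusted p = 0.0828 from limma).

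Among secreted relatives that carry an IGFBP domain, 2 of 7 genes tested were lower and 0 were higher, beside 17.3% and 11.3% of all genes, with a median of -1.04. *Wisp1*, a matricellular protein of the CCN family, had 3326 and 4447 normalized counts in WT and 1234 and 1365 in those labelled Taf4a-/-. *Esm1*, secreted by endothelium, had 103 and 88.3 against 29.4 and 21.0, and was not called without WT replicate 2 (adjusted p = 0.0544 from limma). The other 5 relatives included log2 fold changes in both directions, none past the threshold.

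In the list of 34 intracellular signalling genes, 6 were lower and 4 were higher, with a median of 0.06. The shares called, 6 and 4 of 34, were near those of all genes tested, 17.3% and 11.3%. The 4 largest falls were in *Irs4*, a docking protein of the receptors (678 and 355 normalized counts in WT against 138 and 161), *Grb14*, an adaptor that inhibits the insulin receptor (231 and 442 against 130.2 and 136), *Pik3r1*, a regulatory subunit of PI3-kinase (2081 and 2959 against 1238 and 1330.5), and the kinase *Akt1* (8544 and 8829 against 5898 and 6248). *Pik3r3*, another regulatory subunit of PI3-kinase, rose from 999 and 1697 to 3735 and 4060.05 normalized counts, or 1.58 on the log2 scale (adjusted p = 0.00815 from limma). The kinase *Mtor* rose from 2521 and 2223 to 3998 and 4045 normalized counts. *Rictor*, a subunit of mTOR complex 2, and *Tsc2*, which restrains mTOR complex 1, had log2 fold changes of 0.41 and 0.48. The calls of *Irs4*, *Pik3r1*, *Pik3r3* and *Mtor* held whichever library was left out. With no variance trend, *Irs4* and *Pik3r1* were not called (adjusted p = 0.0530 and 0.0641 from limma). The call of *Rictor* was lost on leaving out any of the 4 libraries and those of *Tsc2* and *Grb14* on leaving out any of 3. *Grb14* was also not called with quantile normalization (adjusted p = 0.0731 from limma), voom (0.0555) or no variance trend (0.0871). *Rictor* and *Tsc2* were also not called with no filter (adjusted p = 0.0581 and 0.0600 from limma), no variance trend or the replicate block. *Tsc2* was further lost with quantile normalization (adjusted p = 0.0565 from limma), scaling by TMM factors (0.0516) and voom (0.0511). Exons of *Tsc2* share 578 bases with those of *Pkd1* on the other strand, where reads cannot be assigned. *Akt1* was not called when either library labelled Taf4a-/- was left out (adjusted p = 0.226 and 0.151 from limma) or with no variance trend (0.0770). *Igf2bp1*, which binds *Igf2* mRNA and is no binding protein of the growth factor, was the 1 gene of 3 in its list to be called, at 8613 and 6583 normalized counts in WT and 13681 and 12143 in those labelled Taf4a-/-. Its call was lost on leaving out any library other than WT replicate 1, with adjusted p = 0.0515 to 0.117 from limma, and with no variance trend (0.0742).

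**Figure D4:**
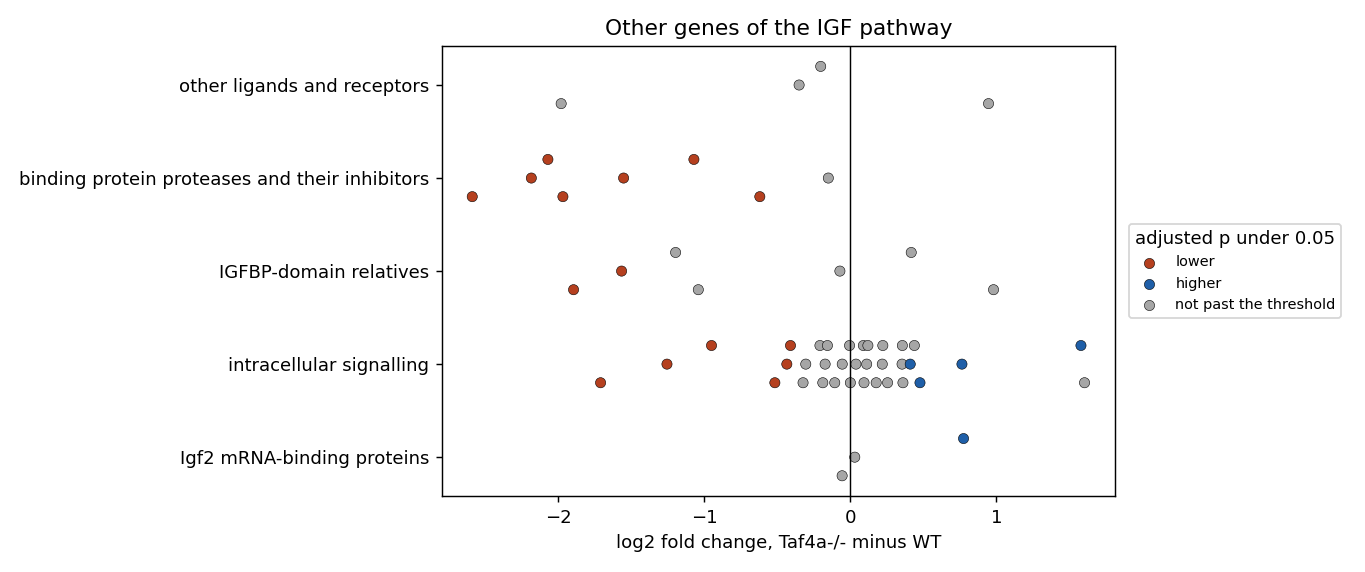
Log2 fold change of each tested gene (point) in the 5 lists of other pathway genes, coloured by the call; the height within a list has no meaning. In the list of proteases and their inhibitors 7 of 8 points are called lower, and the 34 signalling genes lie on both sides of 0.

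None of the 4 tested genes among the other ligands and receptors was called, *Igf2* and its clearance receptor *Igf2r* among them. *Insrr*, another gene of this list, had 22.8 and 89.4 normalized counts in WT and 6.85 and 16.6 in those labelled Taf4a-/- (adjusted p = 0.0953 from limma). With the replicate block, 1 gene of this list was called lower. *Igf2*, *Igf2r*, *Insrr* and the adaptor *Grb10* were singled out after their values were seen. *Igf2*, the ligand of fetal growth, was the gene with the highest normalized counts in every library, 292119 and 249893 in WT and 213012 and 258660 in those labelled Taf4a-/-, and the genotypes overlapped. Per kb of exon, *Igf2* exceeded *Igf1* by 287 and 174 times in WT and by 3000.1 and 1886 times in the others, and part of its exons overlaps an antisense gene, *Igf2as*, over 98 bases. *Igf2r* had 42372 normalized counts in WT replicate 1 and 30544 and 28657 in those labelled Taf4a-/-, but 5562 in WT replicate 2, 7.62-fold below WT replicate 1. *Grb10*, an adaptor that inhibits both receptors, was likewise lowest in WT replicate 2, with 43040.3 normalized counts in WT replicate 1, 46134 and 42811 in those labelled Taf4a-/-, and 4966 in that library. Of all genes tested, 0.171% differed as much between the WT lines as *Igf2r* and 0.106% as much as *Grb10*. Both genes are imprinted in the mouse and are expressed mainly from the maternal allele in most tissues. Without WT replicate 1 their log2 fold changes were 2.41 and 3.16 (adjusted p = 0.0117 each from limma), and without WT replicate 2 they were -0.52 and 0.05 (adjusted p = 0.0593 and 0.805). *Igf1r* was also lowest in WT replicate 2, but 18.4% of all genes tested differed as much between the WT lines.

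**Figure D5:**
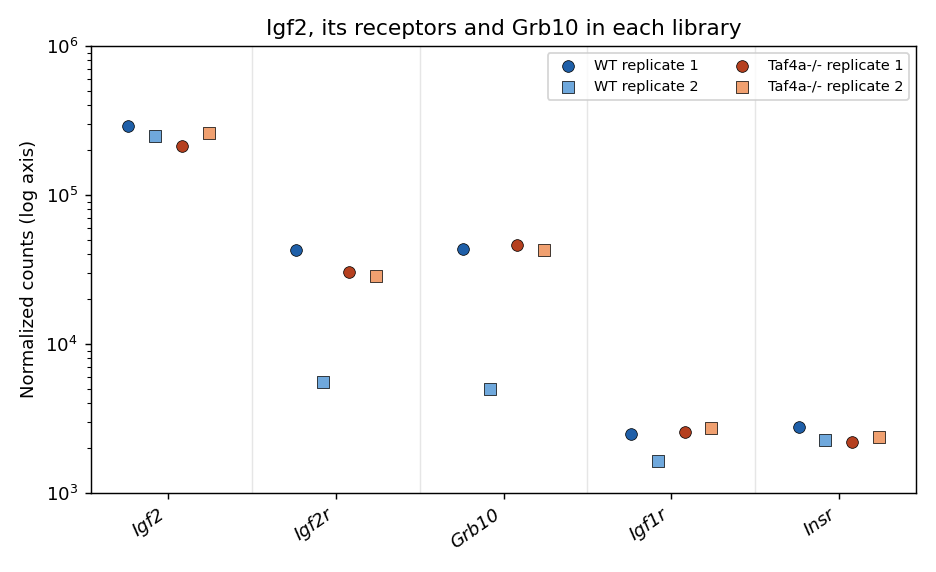
Normalized counts (log axis) of *Igf2*, *Igf2r*, *Grb10*, *Igf1r* and *Insr* in each library. For *Igf2r* and *Grb10*, WT replicate 2 lies at 5562 and 4966, below the other 3 libraries at 28657 or more.

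Markers of several cell types, in lists picked by hand, differed between the genotypes. Over all genes tested, 17.3% were called lower and 11.3% higher. All 10 visceral endoderm and liver markers were called lower, with summed levels of 68311 to 83563 normalized counts in WT and 606 to 697 in those labelled Taf4a-/-, where *Alb* was at 0 in both. All 10 macrophage markers were lower, from 10866 to 13884 in WT against 262 to 395, and *C1qa* was at 0 in both libraries labelled Taf4a-/-. Of 9 fibroblast and stroma markers 7 were lower and 0 were higher, with sums of 432784 to 599149 against 50112 to 62459. In WT the collagen genes *Col3a1*, *Col1a1* and *Col1a2* had the highest values of this list. *Col1a1* had 114769 and 194896 normalized counts in WT against 13344 and 16578. The 2 markers not called were receptors. *Pdgfra* had 7098 and 5451 in WT against 5012 and 6043, which overlapped, and *Pdgfrb* had 3465 and 2528 against 1981 and 2118. For smooth muscle, 2 of 4 markers were lower (sums of 28511 to 51655 against 18552 to 19284), and for endothelium 0 of 5 were called in either direction (7104 to 10822 against 5726 to 9541). All 8 pluripotent cell markers were higher, with sums of 1500.4 to 3957 in WT and 14331 to 16074 in the others, and *Pou5f1* had 1097 and 278 against 3113 and 3325. The part of these cell types in the falls of *Igf1* and the binding proteins was not tested.

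By distance between profiles of log2(normalized counts + 1) over the 4 libraries, centred on each gene's mean, the 3 genes most like *Igfbp1* among the other 16925 tested were *Ambp*, *Ms4a7* and *Msr1*, at distances of 0.84, 0.89 and 1.20. *Ambp*, a plasma protein gene of liver, had 270.03 and 609 normalized counts in WT and 4.89 and 1.11 in those labelled Taf4a-/-, and like *Igfbp1* it was higher in WT replicate 2 and lower in Taf4a-/- replicate 2. *Ms4a7* and *Msr1*, genes of macrophages, had 228 and 271, and 159 and 255, in WT, against at most 1 read in each of the others. They were chosen for this likeness, so their direction is a description.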

How the data were processed

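Poly(A) RNA was sequenced from 2 WT and 2 Taf4a-/- lines with a TruSeq v2 kit, which does not mark strand. The authors aligned reads to mouse build mm9 (NCBI37) with Tophat, and the deposited values are read counts of each gene over the DESeq size factor of the library. The submitters' processing notes name CASAVA 1.8, TopHat 1.3.3, HTSeq 0.5.3p1 and DESeq, and the annotation release is not given in the sources used here. Whole reads could be recovered from these normalized counts for 100% of values (within 0.01 of a whole number), which gave 21732746 to 27733034 reads per library.

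The 16926 genes whose mean reached 10 normalized counts entered limma (version 3.58.1, R 4.3.3; functions lmFit and, with its trend in variance, eBayes; two-sided) as log2(value + 1), with Benjamini-Hochberg adjustment over all of them. The script was tested on simulated data. Exon lengths and locations came from GENCODE's annotation of NCBIM37, which held all 24637 identifiers, with the same symbol for 99.4%. Lengths are those of annotated exons, and *Igf1r* transcripts there may lack untranslated sequence. Promoter windows came from RefSeq (GRCm38.p6). Python 3.11.15 with matplotlib 3.10.9 made the plots.

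The members and the gene lists were chosen with earlier results of these data known, so counts over them are descriptions. Named are all members, *Taf4a*, called genes of the 5 pathway lists (for intracellular signalling the 4 largest rises and falls), *Actc1*, *C1qa*, *Alb*, *Col1a1* and *Pou5f1*, and the 3 genes nearest in profile to the member with the largest called fall. *Igf2*, *Igf2r*, *Insrr* and *Grb10* were added after values were seen. *Ins1* was not analysed here. No set test was run. Alternatives changed the pseudocount, filter, scaling, variance model and threshold, added a replicate block, or left out 1 library.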

Additional observations from a re-analysis of the deposited data

How the results depend on the processing

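The spread rests on 2 libraries per genotype, and leaving one out leaves a lone library that is assumed to vary like the others. The planned edgeR and DESeq2 tests were not run; limma's voom on the recovered reads called the same side of the threshold for all 10 members. No label ties a replicate number to a line or pairs the libraries. The correlation of same-numbered deviations was 0.012, but with 2 libraries per genotype it cannot tell whether same-numbered libraries shared a batch. With the replicate block no member changed its call, and pathway genes called higher went from 5 to 3. The cause of the changes below was not tested.

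*Igfbp3* (-0.59) was not called with no variance trend, at an adjusted p under 0.01 or with a 2-fold change required. *Igfbp6* was not called with no filter (-2.03), quantile normalization (-1.75), no variance trend (-2.03) or at 0.01 (-2.03), and was not tested at a mean of at least 50. Over these settings adjusted p ran from 0.0235 to 0.0881 for *Igfbp3* and from 0.0244 to 0.0867 for *Igfbp6*. Quantile normalization put the median of all genes at 0.11. With one library left out, log2 fold changes ran from -4.08 to -3.14 for *Igf1*, 0.10 to 0.70 for *Igf1r*, -0.29 to 0.0015 for *Insr* (above 0 without WT replicate 1), -8.46 to -6.90 for *Igfbp1*, -0.57 to -0.15 for *Igfbp2*, -0.74 to -0.44 for *Igfbp3*, 0.17 to 0.41 for *Igfbp4*, -1.57 to -1.11 for *Igfbp5*, -2.72 to -1.33 for *Igfbp6* and -3.88 to -2.76 for *Igfbp7*. Members called ran from 4 to 6 lower and 0 to 1 higher.

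Pathway genes called lower, 15 in all, were 7 with no variance trend, 5 at 0.01 and 8 to 16 with a library left out. Those called higher, 5, were 3 with no filter, 2 with no variance trend, 2 at 0.01, 1 with a 2-fold change and 2 to 9 with a library left out. All genes called lower, 2928, were 1741 with no variance trend, 1119 at 0.01, 1936 with a 2-fold change and 1453 to 3106 with a library left out. All genes called higher, 1906, were 856, 331, 747 and 600 to 2558 in the same order. With quantile normalization 2625 genes were higher and 2459 lower. The share of *Igfbp2* in WT, 34.5%, was 23.3% without division by length, 40.5% per kb of the longest transcript, and 32.6% to 36.5% by library; that of *Igfbp4* in Taf4a-/- was 45.1% to 51.3% by library.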

Other observations

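The WT lines differed from each other in several of these genes. WT replicate 2 exceeded WT replicate 1 by 1.34 on the log2 scale for *Igfbp1*, 1.12 for *Igfbp7*, 0.76 for *Igfbp6* and 0.50 for *Igf1*, and the difference was -0.01 for *Igfbp3*. Between the libraries labelled Taf4a-/-, the difference of replicate 2 from replicate 1 was -1.56 for *Igfbp1*, -0.73 for *Igfbp7*, 0.94 for *Igf1* and 1.39 for *Igfbp6*. For each of these genes the difference between libraries of a genotype was smaller than that between the genotypes. For *Igfbp3* it was at most 0.30 against 0.59. These are values with no test.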
